A study of Danio rerio with 4 samples.

Results

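The cytosolic ribosomal protein genes were compared between zebrafish larvae exposed to bisphenol C (BPC) and vehicle controls. They were taken as the genes named rpl, rplp or rps with a number, or rpsa, leaving out the rps6k kinases and rps19bp1. The rule found 86 of the 27472 genes in the expression table, 50 of the large subunit (rpl and rplp) and 36 of the small subunit (rps and rpsa). The study bears on the proliferation of liver and intestinal cells in larvae given bisphenol C, a member of the bisphenol family of plastics chemicals. Messenger RNA was selected by its poly(A) tail and sequenced as strand-marked paired-end libraries. Both groups were of the AB strain, were treated from 4 hours post fertilization (hpf) and were collected at 72 hpf: the DMSO group received the solvent, and the BPC group received 4 µM BPC. Each group had 2 libraries, numbered 1 and 3. The labels name no dissected tissue and do not say how many larvae made a library or whether the libraries came from separate clutches, so the spread behind each p-value is that of these libraries alone and could be technical.

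The ribosome of the cytoplasm joins a small subunit, which reads the messenger RNA, to a large subunit, which forms the peptide bond. Each subunit folds ribosomal RNA with a set of proteins that are needed in nearly equal numbers, and animal cells make them from messengers that begin with a run of pyrimidines and are translated according to growth signals. Their messengers are among the most abundant in a growing larva.

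Ribosomal protein genes were higher in BPC larvae in both subunits. All 86 passed the filter on low values, and 78 were called higher at an adjusted p under 0.05 and 0 lower (limma on log2(FPKM + 1) over 19873 genes), where 7.06% of all tested genes were called higher and 17.5% lower. At an unadjusted p under 0.05, 82 of the genes were higher and 1 was lower, where 12.2% of all tested genes were higher and 27.8% lower. The levels are in FPKM, which divides fragments by transcript length and library size, so genes can be compared per length. The median log2 change of the 86 genes was 0.86, beside -0.12 over all tested genes, with an interquartile range of 0.69 to 0.96. Both BPC libraries lay above both DMSO libraries in 82 of the 86 genes, against 23.0% of tested genes. A log2 change of at least 1 was seen in 17 of the genes (8 large, 9 small), against 1.54% of tested genes. Leaving out DMSO replicate 1 left 11 genes called higher (1.74% of all genes) and leaving out DMSO replicate 3 left 13 (2.18%), with the lone DMSO library assumed to vary like the BPC pair, while 83 and 84 of the 86 log2 changes stayed above 0. Quantile normalization left 22 called higher (9.80%) at a median of 0.30, where that of all genes was 0.02. It left 74 of the 86 log2 changes above 0, against 83 in the main fit. TPM scaling, which gives each library the same total, left 62 higher (3.82%) and 1, rps8b, lower (36.7%). Its median was 0.61, where that of all genes was -0.36.

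**Figure D1:**
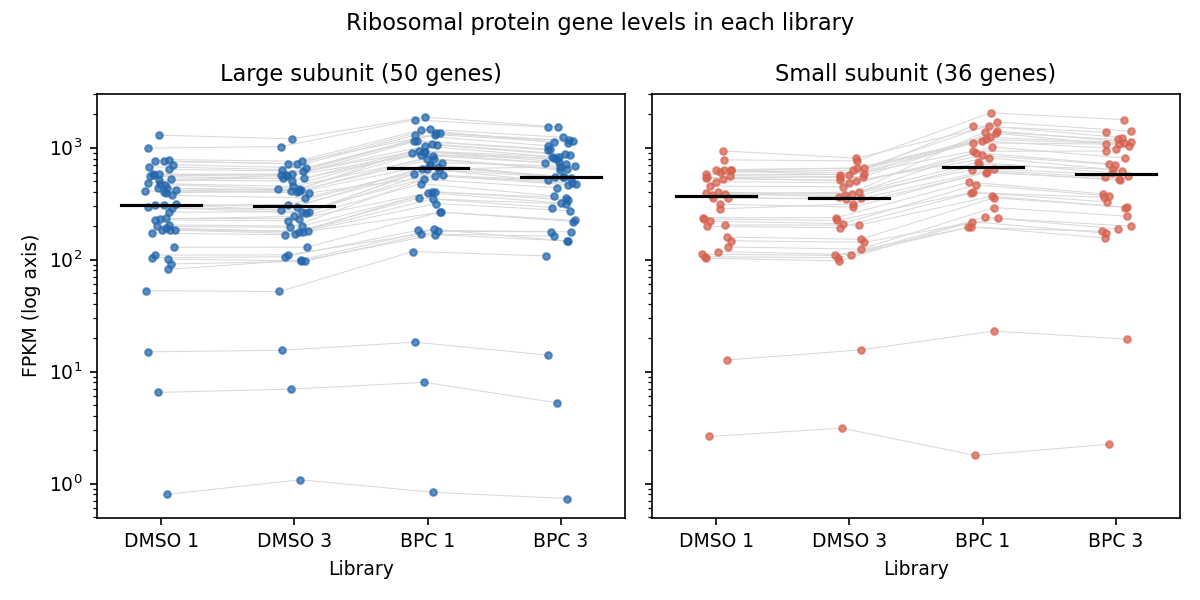
FPKM (log axis) of each ribosomal protein gene in the 4 libraries, large subunit at left and small subunit at right; each point is a gene, a grey line joins a gene across libraries and a black bar marks the median. The medians of the large subunit were 310.2 and 304 FPKM in DMSO and 657 and 546 FPKM in BPC; most genes moved in parallel, and 6 had a mean below 100 FPKM.

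The FPKM totals of the DMSO libraries were 355583 and 355364, and those of the BPC libraries 422245 and 425611, so the total itself was larger in BPC. The 86 genes made up 9.02 and 8.80% of these totals in the DMSO libraries and 15.0 and 12.6% in the BPC libraries. Their summed level was 32076 and 31289 FPKM in DMSO and 63505 and 53515 FPKM in BPC, 1.85 times as high on average, and their rise made up 39.2% of the rise of the total. With 2 libraries against 2, an exact permutation test of such a share cannot give a two-sided p below 33.3%, so none is given. In RNA from many tissues, fewer cells of a type and less RNA per cell cannot be told apart, and the same holds for a rise. The depth of the libraries is unknown, because the files hold no read counts.

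The BPC libraries differed from each other in these genes. BPC replicate 1 was above BPC replicate 3 in 83 of 86 genes, with a median ratio of 1.19, where the same ratio over all tested genes was 1.03. DMSO replicate 1 was above DMSO replicate 3 in 62 genes, with a median ratio of 1.03. The 3 genes that did not follow in BPC were rplp2, rps29 and rps8b. Without BPC replicate 1 the call count was 76 (5.69% of all genes), and without BPC replicate 3 it was 82 (10.7%).

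**Figure D2:**
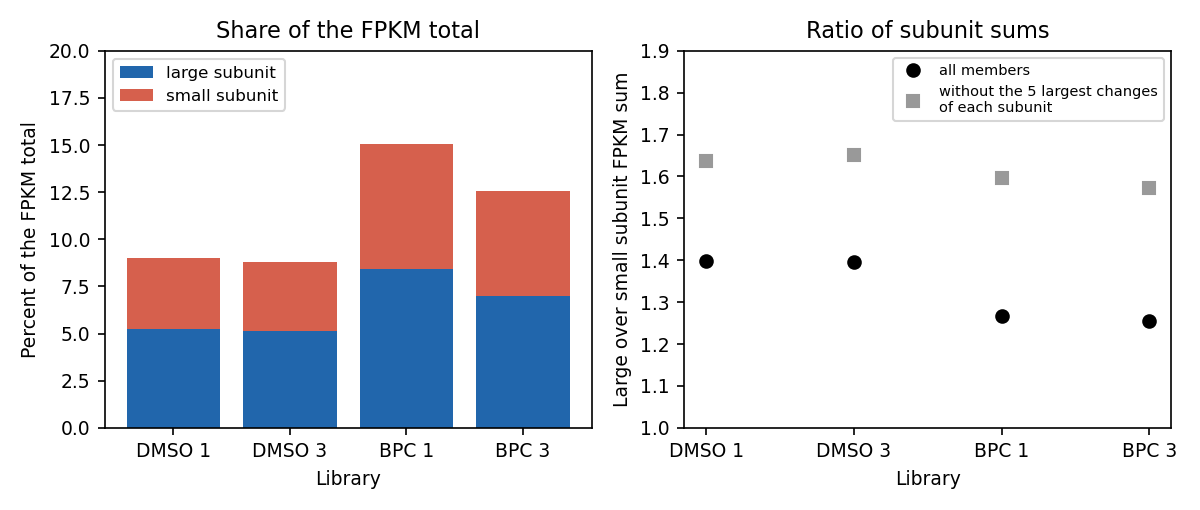
Left, percent of each library's FPKM total in large and small subunit genes. Right, large subunit FPKM sum over small subunit FPKM sum in each library, for all 86 genes and without the 5 genes of each subunit with the largest changes; the ratio was 1.397 and 1.396 in DMSO and 1.268 and 1.255 in BPC.

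Gene by gene, the median log2 change was 0.85 in the large and 0.88 in the small subunit. Of the large subunit 44 of 50 genes (88.0%) were called higher, and of the small subunit 34 of 36 (94.4%), where 7.06% of all tested genes were. Most of the role groups below had all of their genes called higher, which is near these shares of their subunits. The large subunit sum was 18692 and 18229 FPKM in DMSO and 35499 and 29786 FPKM in BPC, and the small subunit sum was 13384 and 13060 FPKM in DMSO and 28006 and 23729 FPKM in BPC. Large over small therefore came to 1.397 and 1.396 in DMSO and 1.268 and 1.255 in BPC, with no overlap between the groups. Without the 5 largest changes in each subunit, chosen after their values were seen, the ratio was 1.636 and 1.650 in DMSO and 1.597 and 1.572 in BPC. The gap between groups was smaller there and in the same direction.

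Among the large subunit genes, the 5 of the P stalk were all called higher, with a median log2 change of 0.96. The stalk is the flexible arm that draws elongation factors to the ribosome. rplp0 (ENSDARG00000051783), which anchors the stalk, had 991 and 1024 FPKM in DMSO and 1772 and 1519.8 FPKM in BPC (log2 change 0.70, SE 0.16, limma adjusted p = 0.0229). rplp1, one of the acidic proteins bound to rplp0, had 515 and 502 in DMSO and 921 and 750.2 in BPC (log2 change 0.71, SE 0.15, adjusted p = 0.0207). Both genes were higher in each BPC library than in either DMSO library, but quantile normalization gave rplp1 a log2 change of -0.01. rplp2 (ENSDARG00000101406), the partner of rplp1, had 231 and 243 FPKM in DMSO and 644 and 672 FPKM in BPC (log2 change 1.47, SE 0.12, adjusted p = 0.00180), the largest change of the large subunit. Its BPC values lay close together, and BPC replicate 3 was the higher of them, unlike in most of the other genes. rpl12, at the base of the stalk, had 309.8 and 297 in DMSO and 699 and 545 in BPC (log2 change 1.02, SE 0.16, adjusted p = 0.00782). It was higher in both BPC libraries as well.

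All 3 genes whose proteins travel with 5S ribosomal RNA were called higher. rpl11 and rpl5 form a particle with 5S RNA that enters the large subunit and that, when free, binds the p53 regulator Mdm2 in mammals. rpl11 had 487 and 572 FPKM in DMSO and 1155 and 952 FPKM in BPC (log2 change 0.99, SE 0.16, limma adjusted p = 0.0101). rpl5a had 581 and 572 in DMSO and 937 and 832 in BPC (log2 change 0.61, SE 0.14, adjusted p = 0.0234). rpl5b had 524 and 532 in DMSO and 1055 and 854 in BPC (log2 change 0.84, SE 0.15, adjusted p = 0.0130). The groups did not overlap in any of the 3 genes, but quantile normalization gave rpl5a a log2 change of -0.11. rpl11 differed between the DMSO libraries more than either rpl5 copy did.

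Around the peptidyl transferase centre, where the peptide bond forms, the 3 genes of the list that the naming rule found were called higher. rpl3 had 675 and 638 FPKM in DMSO and 1290.4 and 1039.7 FPKM in BPC (log2 change 0.82, SE 0.16, limma adjusted p = 0.0159). rpl10, among the last proteins to join the large subunit, had 265 and 268 in DMSO and 563 and 467 in BPC (log2 change 0.94, SE 0.14, adjusted p = 0.00710). rpl8 had 435 and 413 in DMSO and 922 and 791 in BPC (log2 change 1.01, SE 0.14, adjusted p = 0.00625). All had both BPC values above both DMSO values, and in each the BPC replicate 1 value was the highest.

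The tunnel through which the new protein leaves, and its mouth, is lined by 8 proteins of the list, and all 8 genes were called higher, with log2 changes from 0.57 (rpl35) to 1.3 (rpl31) and a median of 0.68. rpl4, whose loop reaches into the tunnel, had 432 and 419 FPKM in DMSO and 795 and 639 FPKM in BPC (log2 change 0.74, SE 0.15, limma adjusted p = 0.0179). rpl17, at the narrow part of the tunnel, had 185 and 171 in DMSO and 396 and 320.2 in BPC (log2 change 1.0, SE 0.14, adjusted p = 0.00675). rpl39, a very small protein near the exit, had 233 and 232 in DMSO and 402 and 357 in BPC (log2 change 0.70, SE 0.12, adjusted p = 0.0117). The groups were apart in all 3, and the DMSO libraries were close to each other. rpl31 (ENSDARG00000053365), which sits at the rim of the exit, had 311 and 266 FPKM in DMSO and 732 and 683 FPKM in BPC (log2 change 1.3, SE 0.14, adjusted p = 0.00316). Its ratio of means was 2.45, with the groups apart. The other exit genes were rpl19 (log2 change 0.67), rpl23a (0.63), rpl26 (0.65) and rpl35 (0.57).

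Other large subunit genes spanned most of the range. rpl23 (ENSDARG00000053457), which also binds Mdm2 in mammals, had 198 and 194 FPKM in DMSO and 522 and 439 FPKM in BPC (log2 change 1.29, SE 0.13, limma adjusted p = 0.00292). rpl30, whose yeast form binds its own transcript, had 468 and 423 in DMSO and 1079.6 and 875 in BPC (log2 change 1.13, SE 0.16, adjusted p = 0.00629). Both were higher in each BPC library by a wide margin. rpl38, whose loss in mice patterns the axial skeleton abnormally, had 91.5 and 96.5 in DMSO and 179 and 177 in BPC (log2 change 0.91, SE 0.10, adjusted p = 0.00402). Its BPC values differed little from each other. rpl18 had 756 and 717 in DMSO and 1458 and 1236 in BPC (log2 change 0.87, SE 0.15, adjusted p = 0.0121). rpl32 had 761 and 719 in DMSO and 1443 and 1113 in BPC (log2 change 0.78, SE 0.17, adjusted p = 0.0232). These were, after rpl6 and rplp0, the large subunit genes with the highest mean level, and rpl32 had the wider spread in BPC.

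**Figure D3:**
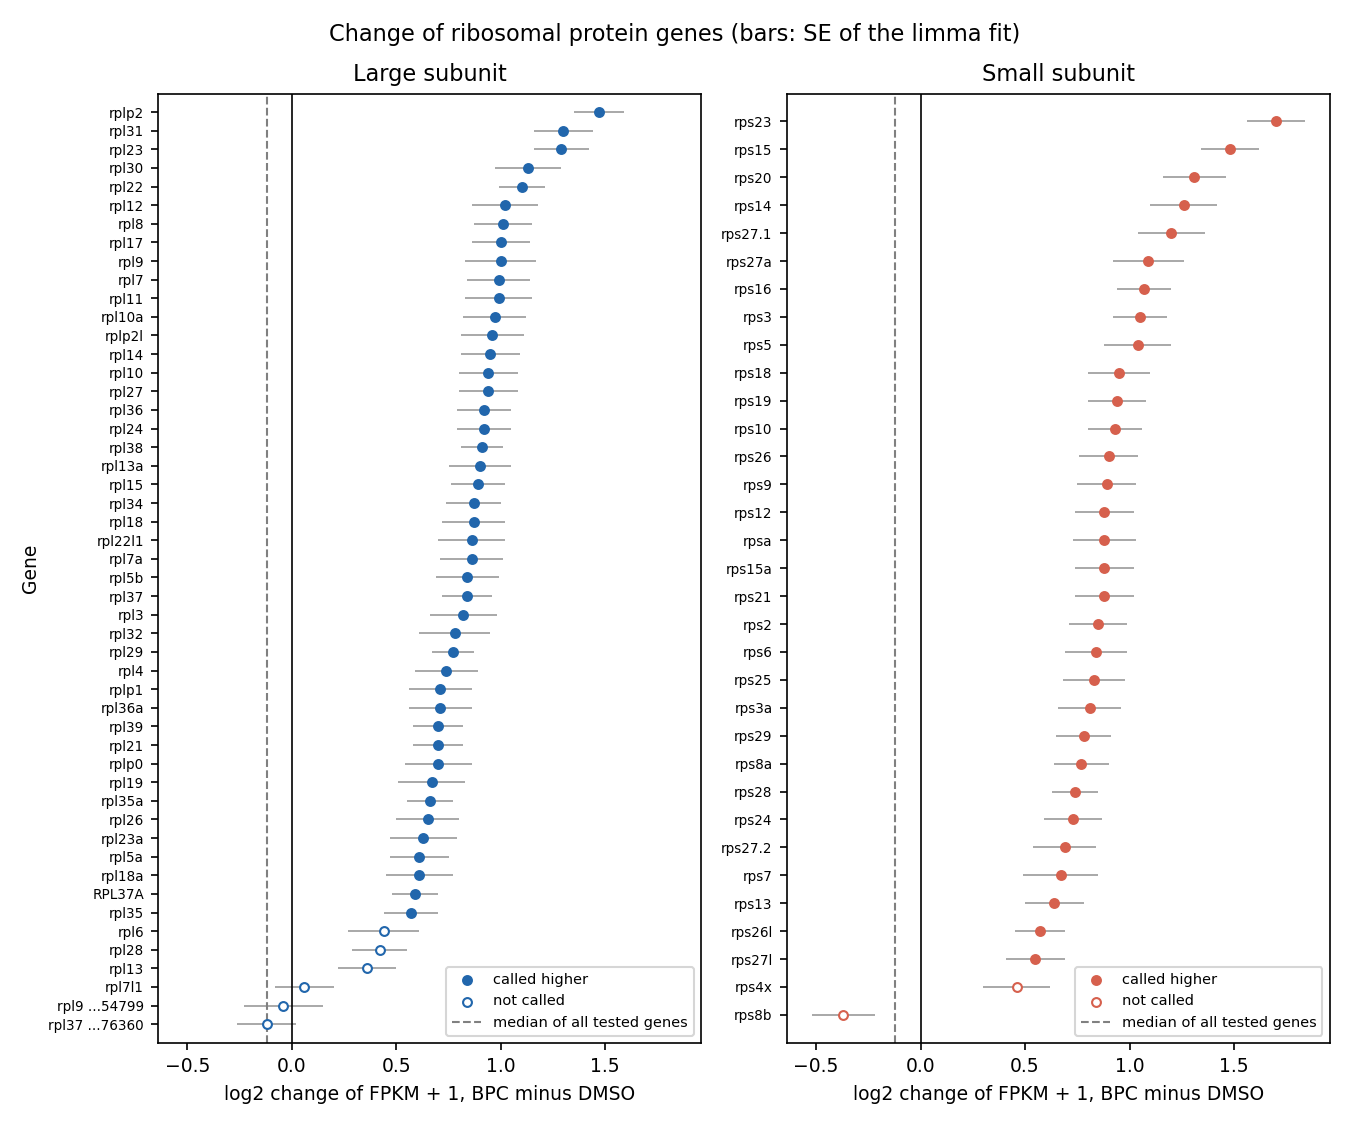
Change of 83 of the 86 genes, BPC minus DMSO, on the log2(FPKM + 1) scale, in order of size within each subunit; bars are the SE of the limma fit, filled points were called higher and open points were not called. The dashed line at -0.12 is the median of all tested genes; rps23 at 1.70 and rplp2 at 1.47 lead their subunits, and rps8b at -0.37 is the lowest.

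In the small subunit, the genes of the decoding centre, head and beak had the highest median change of the 3 groups. All 10 were called higher, with a median log2 change of 0.99. rps23 (ENSDARG00000021838), whose loop lies beside the codon being read, had 399 and 388 FPKM in DMSO and 1389 and 1183 FPKM in BPC (log2 change 1.70, SE 0.14, limma adjusted p = 0.00196). It showed the largest change of all 86 genes, a ratio of means of 3.27, with the groups far apart. rps15 (ENSDARG00000070849), whose tail reaches the decoding site, had 535 and 512 FPKM in DMSO and 1569 and 1369.8 FPKM in BPC (log2 change 1.48, SE 0.14, adjusted p = 0.00250). rps20 (ENSDARG00000036044), of the head, had 778 and 762 FPKM in DMSO and 2049 and 1778 FPKM in BPC (log2 change 1.31, SE 0.15, adjusted p = 0.00412). In DMSO it had a lower mean than rpl6, rplp0 and rps7, and in BPC it had the highest mean of the 86, with a range that overlapped that of rpl6. rps3, at the entry of the messenger channel, had 159 and 152 in DMSO and 356 and 295 in BPC (log2 change 1.05, SE 0.13, adjusted p = 0.00503). rps27a, made as a fusion with ubiquitin, had 563 and 549 in DMSO and 1345 and 1037 in BPC (log2 change 1.09, SE 0.17, adjusted p = 0.00816). Both were higher in each BPC library, and rps27a had the wider BPC spread. rps19, the gene most often mutated in Diamond-Blackfan anaemia in people, had 103 and 97.6 in DMSO and 218 and 172 in BPC (log2 change 0.94, SE 0.14, adjusted p = 0.00777). rps29, a zinc-binding protein of the head, had 542 and 544 in DMSO and 929 and 933 in BPC (log2 change 0.78, SE 0.13, adjusted p = 0.00997). Its replicates were almost equal within each group. The others were rps2 (0.85), rps10 (0.93) and rps12 (0.88).

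All 10 genes of the platform and messenger exit were called higher, with a median log2 change of 0.85. rps14 (ENSDARG00000036629), the gene lost in the 5q- syndrome of people, had 629.5 and 659 FPKM in DMSO and 1694 and 1404 FPKM in BPC (log2 change 1.26, SE 0.16, limma adjusted p = 0.00470). rpsa, also known as the laminin receptor precursor, had 237 and 237 in DMSO and 493 and 387 in BPC (log2 change 0.88, SE 0.15, adjusted p = 0.0110). rps28, at the messenger exit, had 112 and 109 in DMSO and 194 and 179 in BPC (log2 change 0.74, SE 0.11, adjusted p = 0.00722). None of the 3 overlapped between groups, and rps14 changed most. The other genes here were rps3a (0.81), rps13 (0.64) and rps21 (0.88), besides the copies of rps26 and rps27.

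The body and foot had the lowest median change of the small subunit groups. Of its 7 genes 5 were called higher, with a median log2 change of 0.73. rps6, the substrate of S6 kinase, had 453 and 448 FPKM in DMSO and 901 and 719 FPKM in BPC (log2 change 0.84, SE 0.15, limma adjusted p = 0.0135). rps24 had 106 and 104 in DMSO and 197 and 156 in BPC (log2 change 0.73, SE 0.14, adjusted p = 0.0144). Both were higher in each BPC library. rps4x, whose human form lies on the X chromosome, had 529 and 505 in DMSO and 813 and 625 in BPC (log2 change 0.46, SE 0.16, adjusted p = 0.0840). It was not called, although both BPC values were above both DMSO values, and quantile normalization gave it a log2 change of -0.26. rps9 (0.89) was called higher. Outside these groups, rps7, which binds Mdm2 in mammals, had 936 and 806 in DMSO and 1558 and 1227 in BPC (log2 change 0.67, SE 0.18, adjusted p = 0.0389), the second highest mean level of the small subunit and the widest DMSO spread of the genes named here.

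Genes whose human forms are mutated in Diamond-Blackfan anaemia lie in both subunits. The disorder is an inherited failure of red cell production. All 22 of them were called higher, where 90.7% of all 86 genes and 7.06% of all tested genes were. Their log2 changes had a median of 0.86 and a range from 0.57 to 1.3, beside a median of 0.86 over all 86.

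Of the 8 genes that were not called, 4 were abundant. rpl6, rpl13, rpl28 and rps4x had levels above 100 FPKM, and their BPC values were above their DMSO values. rpl6 (ENSDARG00000058451), the gene with the highest mean level over all libraries, had 1294 and 1199 FPKM in DMSO and 1876 and 1529 FPKM in BPC (log2 change 0.44, SE 0.17, limma adjusted p = 0.102). rpl13 had 415 and 395 in DMSO and 566 and 478 in BPC (log2 change 0.36, SE 0.14, adjusted p = 0.103). rpl28 had 185 and 179 in DMSO and 265 and 224 in BPC (log2 change 0.42, SE 0.13, adjusted p = 0.0583). The 95% intervals of these log2 changes ran from 0.03 to 0.85 for rpl6, from 0.03 to 0.69 for rpl13, from 0.11 to 0.72 for rpl28 and from 0.07 to 0.86 for rps4x. The remaining 4 were low. rps8b had 2.63 and 3.12 FPKM in DMSO and 1.78 and 2.24 FPKM in BPC (log2 change -0.37, SE 0.15, adjusted p = 0.118). It was the only one of the 86 with both BPC values below both DMSO values, against 45.1% of tested genes. rpl7l1 had 15.0 and 15.5 in DMSO and 18.3 and 14.0 in BPC (log2 change 0.06, SE 0.14, adjusted p = 0.767). Its groups overlapped.

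The last 2 entries not called carry conflicting names. The entry ENSDARG00000054799, named rpl9 in the expression table, has the symbol RFC1 in the reference name table and a KEGG orthology entry that is not a ribosomal protein. Its level was 6.51 and 6.97 FPKM in DMSO and 8.02 and 5.25 FPKM in BPC (log2 change -0.04, SE 0.19, limma adjusted p = 0.886). The entry ENSDARG00000076360, named rpl37, has the symbol COA1 there. Its level was 0.799 and 1.08 FPKM in DMSO and 0.834 and 0.734 FPKM in BPC (log2 change -0.12, SE 0.14, adjusted p = 0.570). Both overlapped between groups and were far below the other rpl9 (289 and 261 in DMSO and 631 and 479.9 in BPC) and the other rpl37 (191 and 178 in DMSO and 348 and 314 in BPC), each of which was called higher. Without these 2 entries 78 of 84 genes were called higher and the median log2 change stayed at 0.86. Of the 84, 82 carry a ribosomal orthology entry, covering 75 different proteins.

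Several proteins are made from more than 1 gene, and copies share sequence, so the split of reads between them is uncertain. The sources used here do not say if reads were counted by strand. The rplp2 copy rplp2l had 554 and 531 FPKM in DMSO and 1149 and 973 FPKM in BPC (log2 change 0.96, SE 0.15, limma adjusted p = 0.00782). rplp2 held 29.4 and 31.4% of the pair's FPKM in DMSO and 35.9 and 40.8% in BPC. Both genes rose, and the smaller one took a larger part of the pair in each BPC library. rps27.1 had 384 and 403 in DMSO and 1016 and 809 in BPC (log2 change 1.2, SE 0.16, adjusted p = 0.00525). rps27.2 had 204 and 203 in DMSO and 369 and 292 in BPC (log2 change 0.69, SE 0.15, adjusted p = 0.0202). rps27.1 held 65.3 and 66.5% of that pair in DMSO and 73.3 and 73.5% in BPC, again with no overlap between groups and a larger part for rps27.1 in BPC. rps26 had 284 and 315 in DMSO and 599.9 and 519.7 in BPC (log2 change 0.90, SE 0.14, adjusted p = 0.00790). rps26l had 147 and 143 in DMSO and 234 and 199 in BPC (log2 change 0.57, SE 0.12, adjusted p = 0.0222). The share of rps26 went from 65.9 and 68.7% to 71.9 and 72.3%, with the groups apart.

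The rpl5 copies moved the other way, with rpl5a at 52.6 and 51.8% in DMSO and 47.0 and 49.4% in BPC. rpl22, a protein with a known role in mouse T cell development, had 52.8 and 51.9 FPKM in DMSO and 118 and 108 FPKM in BPC (log2 change 1.1, SE 0.11, adjusted p = 0.00248). Its paralogue rpl22l1 had 81.7 and 99.4 in DMSO and 186 and 146 in BPC (log2 change 0.86, SE 0.16, adjusted p = 0.0142). The share of rpl22, 39.2 and 34.3% in DMSO and 38.9 and 42.5% in BPC, overlapped between groups. rps27l, which p53 induces in human cells, had 12.7 and 15.6 in DMSO and 23.0 and 19.5 in BPC (log2 change 0.55, SE 0.14, adjusted p = 0.0346). rps8a had 355 and 352 in DMSO and 644 and 564 in BPC (log2 change 0.77, SE 0.13, adjusted p = 0.0110). rpl7 had 639 and 618 in DMSO and 1339 and 1159 in BPC (log2 change 0.99, SE 0.15, adjusted p = 0.00730). Each of these was called higher, and rps8a and rpl7 held at least 97.6% of their pairs with rps8b and rpl7l1 in every library.

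**Figure D4:**
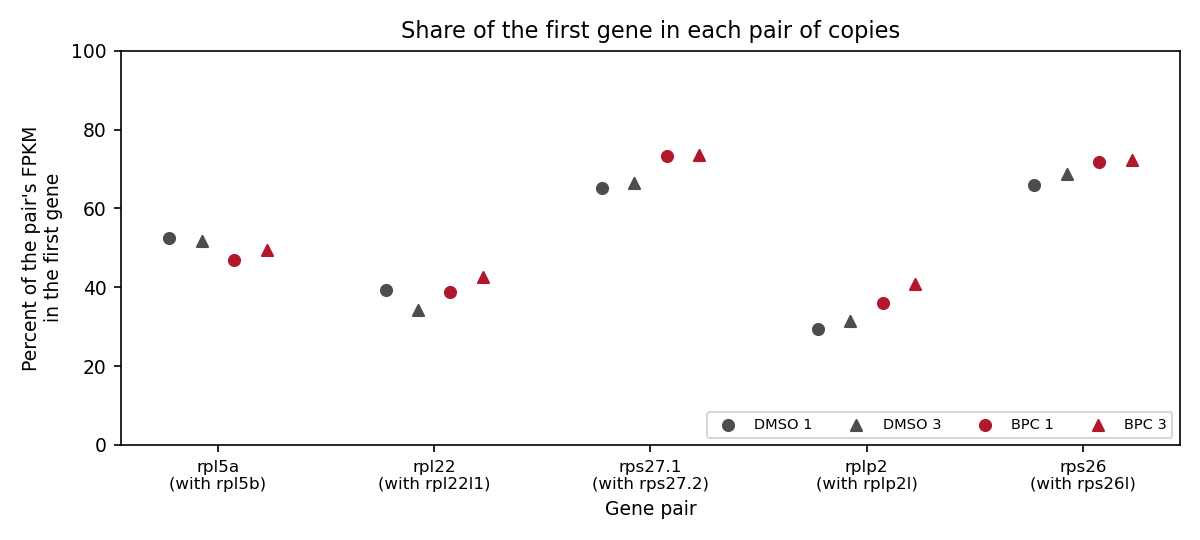
Percent of a pair's summed FPKM that lies in the first gene, for 5 pairs of copies in each library (grey DMSO, red BPC; circles replicate 1, triangles replicate 3). The share of rps27.1, rplp2 and rps26 is higher in both BPC libraries than in both DMSO libraries, that of rpl5a is lower, and that of rpl22 overlaps.

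The order of the genes by level was largely kept. Across the 86 genes the log2 mean levels in DMSO and BPC had Pearson's r = 0.990 and Spearman's rho = 0.968, as a description, since genes share the same 4 libraries. In both BPC libraries 18 genes exceeded 1000 FPKM, against 1 gene, rpl6, in both DMSO libraries. Among the 100 genes with the highest mean level, 30 were ribosomal protein genes in DMSO and 34 in BPC. The 80 genes with a mean of at least 100 FPKM included 76 called higher, with a median log2 change of 0.87, and both BPC values were above both DMSO values in all 80. Of the 369 other genes at that level 116 were called higher (31.4%) and 30 lower, with a median of 0.29. In these 80 genes the log2 change and the log2 DMSO level had r = -0.0121, again a description across genes.

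The authors' deposited table gave 82 of the 86 genes a q-value under 0.05 and a rise, and 0 a fall, where 9.68% of its 27472 genes rose and 9.76% fell at that q-value. It marked 18 as significant and up (9 large, 9 small), against 1.94% of all genes. A deposited enrichment table for BPC replicate 3 against DMSO replicate 3 alone listed 13 of 128 KEGG Ribosome genes among 424 of 5689 selected genes, with the authors' p = 0.156. The shares selected were 10.2% of the pathway and 7.45% of all genes there. The 128 genes are not the same set as the 86.

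A further 2 ribosomal proteins are encoded by genes outside the naming rule, and these were chosen after their values were seen. faua, which encodes small subunit protein eS30 fused to a ubiquitin-like protein, had 496 and 478 FPKM in DMSO and 1151 and 929.9 FPKM in BPC (log2 change 1.09, SE 0.15, limma adjusted p = 0.00670). The gene si:dkey-151g10.6, for which RefSeq gives rpl41 as a synonym, had 924 and 909 in DMSO and 2534 and 2191 in BPC (log2 change 1.36, SE 0.16, adjusted p = 0.00407). Both were called higher with groups apart. The second fau copy, faub, was low and called lower, with 5.53 and 6.58 in DMSO and 3.79 and 4.07 in BPC (log2 change -0.51, SE 0.13, adjusted p = 0.0356). With the first 2 genes added, the share of the FPKM total was 9.42 and 9.20% in DMSO and 15.9 and 13.3% in BPC.

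The same fit gave the other genes of the translation machinery. Of 42 other messengers known in mammals to start with a pyrimidine run, 20 were called higher (47.6%) and 3 lower (7.14%), with a median log2 change of 0.45. Over all tested genes 7.06% were called higher and 17.5% lower. The list holds the fau copies. eif3f, a subunit of initiation factor 3, had 120.3 and 116 FPKM in DMSO and 240.2 and 215 FPKM in BPC (log2 change 0.94, SE 0.11, limma adjusted p = 0.00453). eef1db, a subunit of elongation factor 1, had 54.4 and 56.2 in DMSO and 94.7 and 96.9 in BPC (log2 change 0.78, SE 0.10, adjusted p = 0.00511). Both had groups apart.

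Of 90 ribosome biogenesis genes, 9 were called higher and 2 lower, with a median of 0.07. rsl24d1, an assembly factor related to rpl24, had 95.5 and 107 in DMSO and 302 and 230.1 in BPC (log2 change 1.37, SE 0.16, adjusted p = 0.00402). ddx21, a nucleolar RNA helicase, had 26.4 and 28.7 in DMSO and 71.0 and 55.3 in BPC (log2 change 1.16, SE 0.14, adjusted p = 0.00458). nop53, an assembly factor of the large subunit, had 46.4 and 50.1 in DMSO and 103 and 82.0 in BPC (log2 change 0.91, SE 0.14, adjusted p = 0.00753). These 3 had the smallest p-values of the list, and their groups were apart. The 10.0% of the list called higher lies near the 7.06% of all tested genes. The 2.22% called lower lies below the 17.5% of all tested genes, whose median was -0.12. Both BPC values were above both DMSO values in 35 of the 90, against 23.0% of tested genes. They were below in 17, against 45.1% of tested genes. At an unadjusted limma p under 0.05, 14 were higher and 4 lower, where 12.2% and 27.8% of all tested genes were. By the deposited q-values of the authors, 16 of the 90 rose and 2 fell. At q under 0.05, 9.68% of all genes rose and 9.76% fell.

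Of 28 genes that control growth and ribosomal protein messengers, 2 were called higher (7.14%) and 4 lower (14.3%), shares near the 7.06% and 17.5% of all tested genes, with a median of -0.06. eif4ebp3l, a repressor that binds initiation factor 4E, had 11.7 and 16.0 FPKM in DMSO and 45.9 and 38.2 FPKM in BPC (log2 change 1.54, SE 0.17, limma adjusted p = 0.00338). larp4aa, an RNA-binding protein of the La family, had 13.7 and 10.7 in DMSO and 5.24 and 6.47 in BPC (log2 change -0.94, SE 0.16, adjusted p = 0.0108). rheb, the activator of the kinase mTOR, had 13.8 and 15.2 in DMSO and 6.16 and 8.81 in BPC (log2 change -0.89, SE 0.17, adjusted p = 0.0145). eif4ebp3l was higher in both BPC libraries, while larp4aa and rheb were lower in both.

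The ribosomal proteins of the mitochondrion, which are encoded by separate nuclear genes, were not called higher. Of 76, limma called 0 higher and 18 lower (23.7%), where 17.5% of all tested genes were called lower. At an unadjusted p under 0.05, 1 was higher and 24 were lower, where 27.8% of all tested genes were lower. By the deposited q-values of the authors, only 5 were lower and 1 was higher, where 9.76% of all genes fell. The median log2 change was -0.12, equal to that of all tested genes. mrpl33, a small protein of the mitochondrial large subunit, had 21.7 and 21.0 FPKM in DMSO and 10.7 and 8.44 FPKM in BPC (log2 change -1.08, SE 0.13, limma adjusted p = 0.00470). mrps22 had 15.4 and 14.1 in DMSO and 8.61 and 8.35 in BPC (log2 change -0.73, SE 0.11, adjusted p = 0.00772). mrpl28 had 24.9 and 22.0 in DMSO and 14.3 and 12.6 in BPC (log2 change -0.76, SE 0.12, adjusted p = 0.00866). All 3 were lower in both BPC libraries. Of 94 tested nuclear genes for oxidative phosphorylation 5 were called higher (5.32%) and 26 lower (27.7%), with a median of -0.25. The shares of all tested genes were 7.06% and 17.5%. At an unadjusted p under 0.05, 7 were higher and 41 lower, where 12.2% and 27.8% of all tested genes were. By the deposited q-values of the authors, 12 of the 96 genes of this list rose and 14 fell. At that q-value 9.68% of all genes rose and 9.76% fell. The respiratory chain gene cox4i1l, at 3.88 and 2.71 in DMSO and 40.9 and 23.6 in BPC, had the smallest p. It rose, unlike most of the called genes of its list. No test compared these lists with the cytosolic genes.

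**Figure D5:**
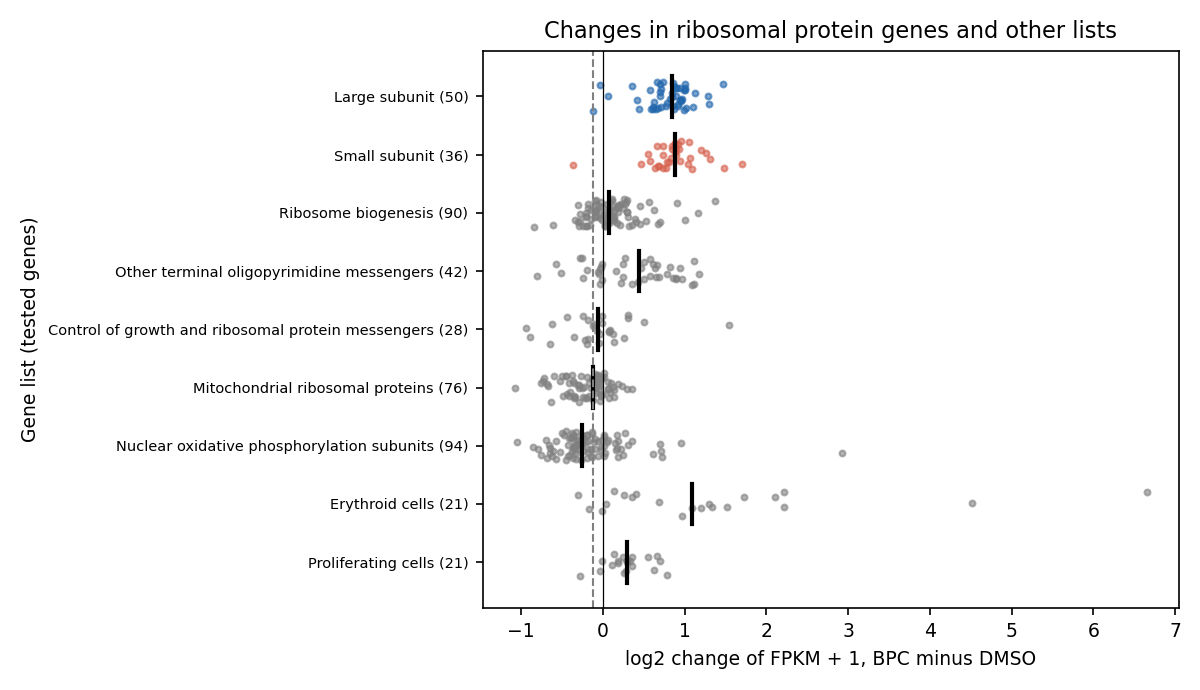
log2 change (BPC minus DMSO, FPKM + 1) of the tested genes of each list; each point is a gene, a black bar marks the median of the list, and the dashed line at -0.12 is the median of all tested genes. The cytosolic ribosomal protein genes of both subunits center on 0.85 and 0.88, while the mitochondrial ribosomal proteins center on -0.12.

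Some markers of cell types also differed between the groups. Of 21 erythroid genes 13 were called higher (61.9%) and 0 lower by limma, where 7.06% of all tested genes were called higher and 17.5% lower. There were also 0 lower at an unadjusted p under 0.05 and by the q-value of the authors' deposited table. The shares lower by these measures were 27.8% of all tested genes and 9.76% of all genes. The other 8 were not called, and the log2 changes ran from -0.31 to 6.66, with a median of 1.09. Their summed level was 2893 and 2843 FPKM in DMSO and 7992 and 8001 FPKM in BPC. Mean levels ran from 1.18 to 1833 FPKM with a median of 17.0, so the sum rests mostly on the highest genes. No erythroid gene was at 0 in any library. Of 21 genes of proliferating cells limma called 5 higher (23.8%) and 0 lower, with a median log2 change of 0.29. The counts were 9 and 0 at an unadjusted p under 0.05, where 12.2% of all tested genes were higher and 27.8% lower. By the q-value of the authors' deposited table they were 14 and 0, where 9.68% of all genes rose and 9.76% fell. Their sum was 801 and 814 FPKM in DMSO and 989 and 870 FPKM in BPC. The largest part of it was tuba8l4, with 303 and 322 in DMSO and 245 and 269 in BPC. It was the 1 gene of the 21 that was lower in both BPC libraries, against 45.1% of tested genes. Of the others, 15 were higher in both, against 23.0% of tested genes. The 4 skin keratins examined were called higher, and krt4 among them had 3755 and 3806 in DMSO and 9494 and 7575 in BPC (log2 change 1.17, SE 0.21, adjusted p = 0.0129). The 13 mitochondrially encoded protein genes took 10.1 and 10.9% of the FPKM total in DMSO and 6.30 and 5.59% in BPC. With these left out of the total, the share of the 86 ribosomal protein genes was 10.0 and 9.88% in DMSO and 16.1 and 13.3% in BPC. Of the 17 markers of larval tissues 8 were called higher (47.1%) and 3 lower (17.6%). The share lower is near the 17.5% of all tested genes. The 3 lower were the liver gene fabp10a, with 55.3 and 36.2 in DMSO and 1.64 and 2.96 in BPC (log2 change -3.82, SE 0.26, adjusted p = 0.00102), the liver gene tfa (log2 change -0.71) and the neuron gene snap25a (log2 change -0.46). The other neuron marker examined was not called. Markers of muscle, skin, lens, neurons, blood and liver were all above 0 in each library. The part of erythroid cells and of the other cell types in the rise of the ribosomal protein genes was not tested.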

How the data were processed

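Poly(A) RNA from 4 larval libraries (2 DMSO, 2 BPC) was analysed. The authors deposited FPKM values, 1 per gene and library, and beside them, per the file headers, a fold change, a log2 fold change, a p-value and a q-value per gene. Tools in the submitters' processing notes, without a stated role, are StringTie 1.3.4d, HISAT2 2.0.4, cutadapt 1.9, edgeR and DESeq2. The genome build, the annotation, the depth of the libraries and the use of strand in counting are in each case not given in the sources used. All table columns of library values were matched to samples by their names.

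FPKM was put on a log2(FPKM + 1) scale, and 19873 of 27472 genes passed a filter of 0.5 FPKM or more in 2 or more libraries. limma 3.58.1 (R 4.3.3) was fitted with an intensity trend and the group as the only term over all of these genes, two-sided, with Benjamini-Hochberg adjustment over all of them and a threshold of 0.05. For low genes this scale makes a fold change look smaller than it is. The fit was tested on simulated data. Shares and subunit ratios are descriptions with no test. "Groups apart" or "higher in both" refers to the 2 libraries of each group.

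The members, their role groups and the other lists were chosen with earlier results of these data known. Genes were named by a rule: in each subunit the 4 highest and 4 lowest by level, the 5 largest and 3 smallest changes, members called lower, all copies, a fixed set, and up to 3 called genes of each other list. Members outside this rule are named from their role group or because they were not called. Gene names come from the expression table, with a reference name table that held all 86 members and RefSeq names. Alternatives were the pseudocount, the filter, centring, quantile and TPM scaling, the intensity trend, a replicate block and leaving out each library. Leaving out the 2 entries with conflicting names, adding 2 further ribosomal protein genes and leaving out the largest changes were chosen after seeing the data. Sequences were not used here. The values of some genes are not reported here, although the counts and sums include them.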

Additional observations from a re-analysis of the deposited data

How the results depend on the processing

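All 78 higher calls were kept with a pseudocount of 0.1, a filter of 1 FPKM and no intensity trend, and they were among the 81 after median centring. Without a filter 60 were kept. Of the members, 9 were called higher in the main test and all 13 alternative fits: rplp2, rpl22, rpl23, rpl31, rpl38, rps3, rps15, rps16 and rps23. The libraries share replicate numbers, but the labels do not say that a number marks a clutch or day, and the deviations of same-numbered libraries had a correlation of 0.00805; with the replicate block 78 members were called higher, and 1333 genes higher and 3282 lower over the whole table.

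Leaving out 1 library gave 11 to 82 higher members, 6 to 47 of the large and 5 to 35 of the small subunit, a small subunit median of 0.75 to 0.98, 329 to 2097 higher and 675 to 4146 lower genes over the whole table, and a median over all genes of -0.13 to -0.09. After quantile normalization 22 members were higher (11 of each subunit; medians 0.30 for all members, 0.24 large, 0.32 small), with 2111 genes lower and a median of all genes of 0.02. Median centring gave medians of 1.01, 1.0 and 1.03 for all members, large and small, with 2441 genes higher, 1997 lower and a median of 0.04. TPM scaling gave 1 lower member and medians of 0.61, 0.60 and 0.63, with 759 genes higher, 7286 lower and a median of -0.36; with totals over non-members these were 1 lower, 0.69, 0.68 and 0.70, with 851 higher, 5751 lower and -0.25. Without a filter 748 genes were higher and 2020 lower, median -0.07, and the pseudocount of 0.1 gave a median of -0.15. The cause of these differences was not tested.

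Direction changed for 6 of the members named by the rule, and only these were followed gene by gene. Members outside the rule changed direction too. Quantile normalization left 74 of all 86 log2 changes above 0, against 83 in the main fit. Quantile normalization gave log2 changes of -0.11 for rpl5a, -0.01 for rplp1 and -0.26 for rps4x. rpl7l1 was at -0.18 with TPM scaling, -0.10 with totals over non-members and -0.12 to 0.25 with 1 library left out, lowest without BPC replicate 1. The rpl9 entry ENSDARG00000054799 was at 0.11 with median centring, 0.06 with quantile normalization and -0.31 to 0.22 with 1 library left out (0.22 without BPC replicate 3 and 0.00 without DMSO replicate 3). The rpl37 entry ENSDARG00000076360 was at 0.03 with median centring and 0.12 with quantile normalization. Leaving out paralogue-like members, the large to small ratio was 1.408 and 1.407 in DMSO and 1.260 and 1.256 in BPC. With the 2 further genes it was 1.413 and 1.414 in DMSO and 1.304 and 1.297 in BPC.

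With 2 libraries a group, no read counts and no record of clutches, the spread is poorly known, and levels are relative to each library's mapped fragments. A rise in RNA per cell and a rise in the share of ribosome-rich cells cannot be told apart. The pseudocount damps the changes of low genes: for rps8b the log2 change is -0.37 on this scale and -0.52 in the authors' deposited table.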

Other observations

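Outside the ribosome, the genes whose 4 values most resembled the median profile of the members were drawn from 4661 other genes with a mean of at least 10 FPKM, by the Euclidean distance between log2 values centred on each gene's own mean. The 10 nearest were tpt1, eif3ea, cfl1l, eif4a1b, nfe2l2a, mibp2, fgfbp1b, nsa2, cbx2 and romo1, at distances of 0.02 to 0.06. The median member lay at 0.17, which is no like measure, since the members were not picked by distance. tpt1, which encodes translationally controlled tumour protein, had 649.8 and 645 FPKM in DMSO and 1278 and 1087 FPKM in BPC (log2 change 0.86, limma adjusted p = 0.0112). eif3ea, a subunit of initiation factor 3, had 136 and 134 FPKM in DMSO and 259 and 221 FPKM in BPC (log2 change 0.82, adjusted p = 0.00764). Both were chosen for their likeness to the members' profile. Their higher BPC values, with BPC replicate 1 the higher, and their size of change follow from that choice. The median profile of the members, centred in the same way, was -0.41 and -0.43 in DMSO and 0.55 and 0.30 in BPC. The likeness was measured over 4 libraries only and is a description.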
